A study of Mus musculus and Homo sapiens with 11 samples.

Results

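The unfolded protein and amino acid stress genes described here are 39 mouse genes, 22 of them targets or relatives of the transcription factor ATF4 and 17 of them sensors, folding enzymes and degradation factors of the endoplasmic reticulum (ER). They were chosen by symbol, with earlier results of these data known, from the 24062 genes of the deposited mouse table. All 39 were found there. They were measured by RNA-seq in cultured MMTV-ErbB2 cells, a mouse mammary tumour line whose ErbB2 transgene is driven by the mammary tumour virus promoter. A brain metastatic derivative of the line, BrM, gave 3 libraries, and the parental line gave 3. The labels name no treatment and no further genetic change in either group. The derivative is written 2a in its labels, and no other derivative of this line was analysed here, so differences belong to that one derivative. The labels give DMEM or RPMI medium and name TruSeq and NEBNext kits without assigning either to a library, so medium, kit and group cannot be told apart. Separate cultures are not stated for replicate libraries, so the p-values measure the spread between libraries, which may be technical.

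Cells that accumulate unfolded protein in the ER respond through sensors in its membrane, among them IRE1alpha (Ern1), PERK (Eif2ak3) and ATF6. IRE1alpha splices the Xbp1 transcript, PERK phosphorylates the translation factor eIF2alpha, and ATF6 is released by cleavage as a transcription factor; together they raise chaperones and the machinery that returns misfolded protein to the cytosol for degradation. Phosphorylated eIF2alpha, which the amino acid sensor GCN2 also produces, slows translation in general but favours translation of ATF4, and ATF4 then induces genes for amino acid synthesis, transport and tRNA charging. Gene-level counts carry neither Xbp1 splicing nor the translation of ATF4, and phosphorylation was not measured.

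Values are the authors' normalised read counts, scaled between libraries and not corrected for gene length, and values per library are listed in the order of replicates 1, 2 and 3. Reads assigned to genes were recovered from the deposited values, taking each library's smallest positive value as 1 read. They numbered 29877087, 38512988 and 39106969 in BrM and 39304974, 46683735 and 40140819 in parental cells. BrM replicates 2 and 3 were close to each other, with 1.59% of tested genes at least 2-fold apart, whereas replicate 1 lay at least 2-fold from them in 26.1% and 26.4% of genes. The parental libraries lay at least 2-fold apart in 7.06% to 12.2% of genes. Summed mammary epithelial markers (Erbb2, Krt8, Krt18, Epcam, Cdh1, Cldn3, Elf5) ranged from 199153 to 235215 in BrM and from 134538 to 145944 in parental cells. Of these 7 genes Krt8, Krt18 and Cldn3 passed as higher in BrM and Cdh1 as lower. Summed fibroblast and pericyte markers ranged from 224 to 1112 in BrM and from 4647 to 16105 in parental cells. In that list 4 of the 6 tested genes passed as lower in BrM. Most of the parental sum was Postn, at 3079 to 11713 in parental cells and 7.45 to 115 in BrM, and Pdgfrb. Pdgfrb was at 1002 to 3683 in parental cells and at or below 3.73 in BrM. Col1a1 and Pdgfra overlapped between the groups, with BrM replicate 1 at 437 and 555. Dcn, Lum and Thy1 were at 0 in BrM. In parental cells Lum was at 0 too, and Thy1 was at or below 1.65. Summed leukocyte markers ranged from 2409 to 11655 in BrM and from 21672 to 40908 in parental cells; most of it was Cd14, which passed as lower in BrM, while Csf1r passed as higher, at 230.0 to 319 in BrM and 1.65 to 18.9 in parental cells. The other tested leukocyte markers, Cd68 and Lyz2, did not pass, and each peaked in a replicate 1 library. Cd68 reached 2670 in BrM replicate 1 and ranged from 194.5 to 594 across all other libraries. Lyz2 reached 353 in parental replicate 1 and stayed at or below 6.61 elsewhere. Ptprc, Itgam and Tyrobp were at or below 6.10 in every library. Brain cell markers summed to between 2229 and 2413 in BrM and between 2003 and 2754 in parental cells, with Aqp4 and Olig2 at 0 in BrM and Olig2 at 0 in parental cells. Of the 4 brain markers tested Gfap (79.2 to 138 in BrM and 20.4 to 29.3 in parental cells) and Mbp (2055 to 2109 in BrM and 949 to 1257 in parental cells) passed as higher in BrM, and Slc1a2 (17.2 to 80.6 in BrM and 665 to 1750.4 in parental cells) as lower. In bulk RNA, fewer cells of a kind and less RNA per cell cannot be told apart, and the part of these markers in the results below was not tested.

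Of the ER genes 7 of 17 fell in BrM, among them the sensors Ern1 and Eif2ak3, the factor Xbp1 and Herpud1, while 19 of the 22 ATF4 genes did not pass the test in either direction. With limma on log2(value + 1) and Benjamini-Hochberg adjustment over 13821 tested genes (threshold 0.05), 11 of the 39 members passed, 2 higher and 9 lower in BrM. Among all tested genes 28.1% passed, 12.2% higher and 15.8% lower, so the share of members that passed, 28.2%, was at the background. Quantile normalisation turned the split of calls over all tested genes round, to 2339 higher and 1835 lower against 1691 higher and 2190 lower in the scaling of the deposited table, and put the median log2 fold change of all tested genes at 0.094, against -0.049; the same number of members passed in each arm and direction. The arms differed in their counts. In the ER arm 8 of 17 passed (47.1%), with Pdia6 higher and Ern1, Eif2ak3, Xbp1, Herpud1, Edem1, Pdia3 and Hyou1 lower. In the amino acid arm 3 of 22 passed (13.6%), with Wars higher and Cebpb and Nupr1 lower. The median log2 fold change, BrM minus parental, was -0.31 in the ER arm, 0.35 in the amino acid arm and -0.049 over all tested genes; the difference between the arms was not tested.

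The groups did not overlap in 11 ER members, 2 of them higher and 9 lower in BrM, and in 3 amino acid members, 1 higher and 2 lower. Over all tested genes 48% did not overlap, 22.3% with BrM higher and 25.7% with BrM lower. Leaving out 1 library moved the number of tested genes that passed, 3881, to 6519 on omitting BrM replicate 1, 2191 on omitting BrM replicate 2, 2312 on omitting BrM replicate 3, 2505 on omitting parental replicate 1, 2226 on omitting parental replicate 2 and 2922 on omitting parental replicate 3. The ER count of lower genes moved only between 6 and 8 under these omissions. The ER count of higher genes became 2 on omitting BrM replicate 1 and 0 on omitting BrM replicates 2 or 3 or parental replicates 2 or 3. The amino acid count of higher genes became 5 on omitting parental replicate 1, 2 on omitting BrM replicate 1 and 0 without any one of the others. The amino acid count of lower genes became 3 on omitting BrM replicate 1 and 1 on omitting BrM replicate 2 or 3 or parental replicate 1 or 2. The shares of all tested genes called higher and lower were 21.1% and 26.1% on omitting BrM replicate 1, 6.64% and 9.21% on omitting BrM replicate 2, and 6.84% and 9.89% on omitting BrM replicate 3. They were 7.95% and 10.2% on omitting parental replicate 1, 6.97% and 9.14% on omitting parental replicate 2, and 8.72% and 12.4% on omitting parental replicate 3.

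**Figure D1:**
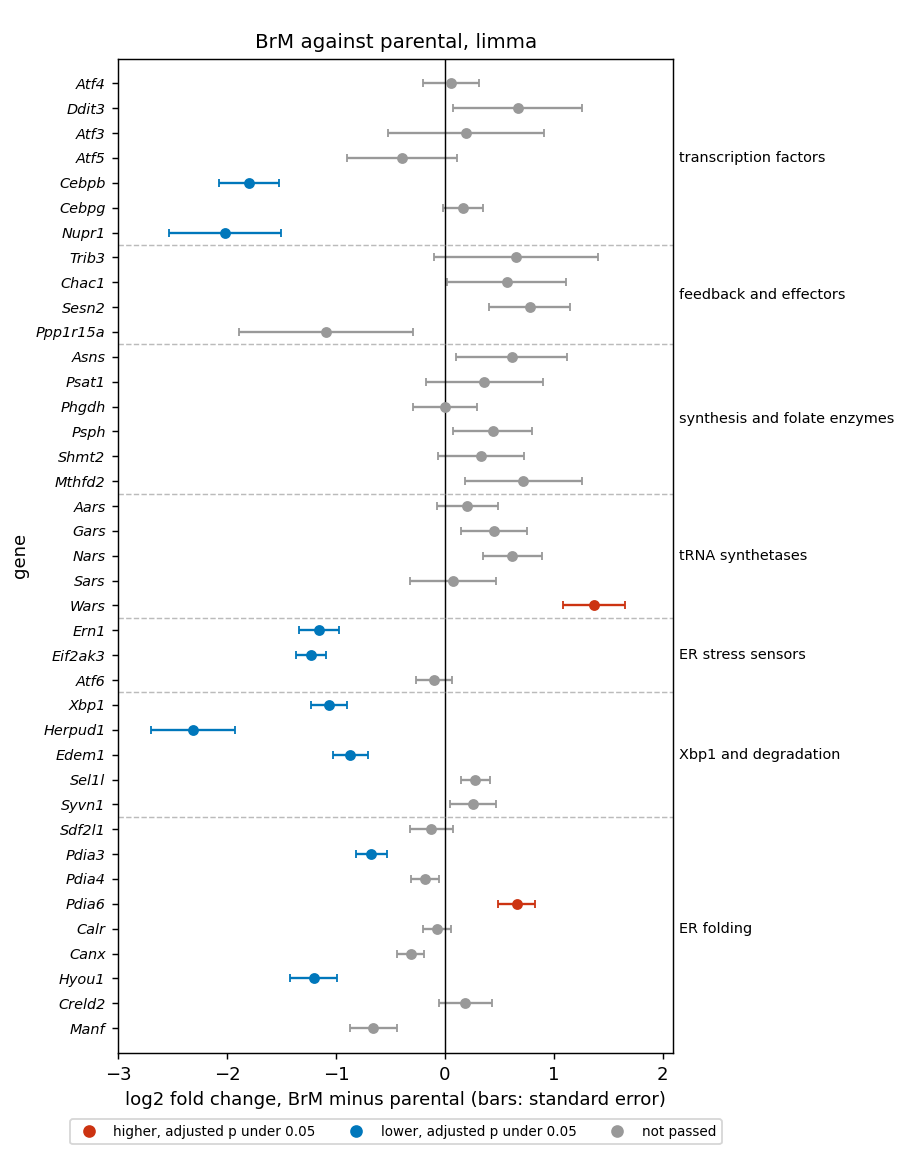
Log2 fold change of each of the 39 members, BrM minus parental, from limma (x axis; bars are the standard error), grouped by role from top to bottom. Coloured points passed an adjusted p of 0.05; the 7 blue points of the ER groups lie left of 0, and Herpud1 is the farthest at -2.32.

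Promoter sequence was set beside these values to show which members carry the response elements named for the pathways. RefSeq promoters on GRCm38.p6, 250 bases before and 50 bases from each start site, were available for 34 members, 20 of the amino acid arm and 14 of the ER arm. The elements were searched on both strands. CARE (TGATGNAA), the element bound by ATF4 with C/EBP factors, was in 7 amino acid promoters (Aars, Asns, Atf3, Chac1, Gars, Nupr1 and Trib3) and in 1 ER promoter, Herpud1, against 3.97% of 32851 promoters. ERSE, the ER stress element read as CCAAT, then 9 bases of any kind, then CCACG, was in 5 ER promoters (Calr, Canx, Creld2, Pdia6 and Syvn1), against 0.119% of promoters. ERSE-II, ATTGG with 1 base before CCACG, was in Herpud1 alone among members, against 0.0365% of promoters, and UPRE (TGACGTGG), an element bound by XBP1 and ATF6, was in 0 members, against 0.676% of promoters. Of the 12 members with an element before the start site, 3 passed the expression test (25.0%; Herpud1 and Nupr1 lower, Pdia6 higher), near the 28.1% of all tested genes. Of these, Nupr1 and Pdia6 are shown first, with Asns and Canx after them as members that hold the same elements and did not pass. A match is a description of letters, not a site shown to be bound. Capitals mark the elements, CARE in Nupr1 and Asns and ERSE in Pdia6 and Canx.
Nupr1: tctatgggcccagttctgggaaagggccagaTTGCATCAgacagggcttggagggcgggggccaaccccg
Pdia6: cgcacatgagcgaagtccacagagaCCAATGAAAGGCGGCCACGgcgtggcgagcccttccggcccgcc
Asns: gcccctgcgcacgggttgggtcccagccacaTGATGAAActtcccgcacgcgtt
Canx: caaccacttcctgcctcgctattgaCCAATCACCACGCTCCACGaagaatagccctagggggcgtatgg
The windows are Nupr1 chr7:126625542-126625611 on the minus strand, Pdia6 chr12:17266466-17266534 on the plus strand, Asns chr6:7693210-7693263 on the minus strand and Canx chr11:50325775-50325843 on the minus strand. The CARE of Nupr1 and Asns lies 110 and 23 bases before the start site, and the ERSE of Pdia6 and Canx 98 and 145 bases before it. In Herpud1 the CARE lies 112 and the ERSE-II 52 bases before the start site.

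Of the 3 ER stress sensors, Ern1 and Eif2ak3 fell (66.7%) and Atf6 did not pass the test. Over all tested genes 15.8% were lower in BrM. Eif2ak3 encodes PERK, the sensor kinase that phosphorylates eIF2alpha; it lies at chr6:70844515-70905245 on the plus strand (GRCm38). Its values were 1141, 1252 and 1201 in BrM, against 3173, 2685 and 2594 in parental cells. The 3 BrM libraries were nearly equal and all lay below the lowest parental library. The means were 1198 ± 55.4 in BrM and 2817 ± 311 in parental cells (SD, n = 3 each), a log2 fold change of -1.23 ± 0.14 (SE) and 2.34-fold lower, with limma adjusted p = 0.00149. Ern1 (chr11:106394650-106487852, minus strand) encodes IRE1alpha, the sensor that splices Xbp1 mRNA. It had 1291, 1017 and 1271 in BrM, against 2975, 2169 and 2872 in parental cells. Every BrM library was below every parental one, and the log2 fold change was -1.16 ± 0.18 (SE), 2.23-fold lower, with limma adjusted p = 0.00533. Atf6, the sensor that becomes a transcription factor after cleavage in the Golgi, had 4459, 5196 and 5633 in BrM, against 6400.0, 4576 and 5454 in parental cells. The groups overlapped, with parental replicate 1 highest and BrM replicate 1 lowest. Its fitted difference was -0.097 (limma adjusted p = 0.701), and it turned to 0.022 under quantile normalisation and 0.022 on omitting parental replicate 1.

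Xbp1 and 2 of the genes of ER-associated degradation fell, and the subunits of the degradation ligase did not pass. Of these 5 genes 60% were lower in BrM, against 15.8% of all tested genes. Xbp1 (chr11:5520659-5525893, plus strand) encodes the transcription factor that IRE1alpha activates by splicing. It had 3424, 3586 and 3349.9 in BrM, against 9117, 6449 and 6406 in parental cells. Its means were 3453 ± 121 in BrM and 7324 ± 1553 in parental cells (SD, n = 3 each), with the groups apart and the BrM libraries close together. The log2 fold change was -1.06 ± 0.17 (SE), 2.09-fold lower (limma adjusted p = 0.00534). Herpud1 (chr8:94386438-94395377, plus strand) encodes a membrane protein that organises the degradation complex and is itself strongly induced by ER stress. It had 2183, 1324 and 1319 in BrM, against 13375, 6853 and 5129.9 in parental cells. The highest BrM library lay below the lowest parental one, although the parental libraries themselves differed, replicate 1 being 2.23 times the mean of replicates 2 and 3. Its means were 1608 ± 497 in BrM and 8453 ± 4349 in parental cells (SD, n = 3 each). At -2.32 ± 0.39 (SE) it had the largest log2 fold change in size among the 39 members, 4.98-fold lower, with limma adjusted p = 0.0067.

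Edem1 (chr6:108828641-108859356, plus strand), a mannosidase-like protein that marks misfolded glycoproteins for removal, had 3005, 4037 and 4064 in BrM, against 6639, 7346 and 6140.2 in parental cells. All BrM libraries were below all parental libraries, 1.82-fold on average (log2 fold change -0.87 ± 0.16 (SE), limma adjusted p = 0.0101). Sel1l and Syvn1 encode the adaptor and the catalytic subunit of the HRD1 ubiquitin ligase, through which such proteins leave the ER. Sel1l had 5583, 5789 and 6101 in BrM, against 5546, 4356 and 4546 in parental cells. Its groups did not overlap, BrM being higher, but the difference of 0.28 ± 0.13 (SE) did not pass (limma adjusted p = 0.167). Syvn1 averaged 3939 ± 854 in BrM and 3262 ± 521 in parental cells (SD, n = 3 each), with overlapping groups and limma adjusted p = 0.398. BrM replicate 1 was its lowest BrM library, and without that library the log2 fold change was 0.45 with limma adjusted p = 0.0492.

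**Figure D2:**
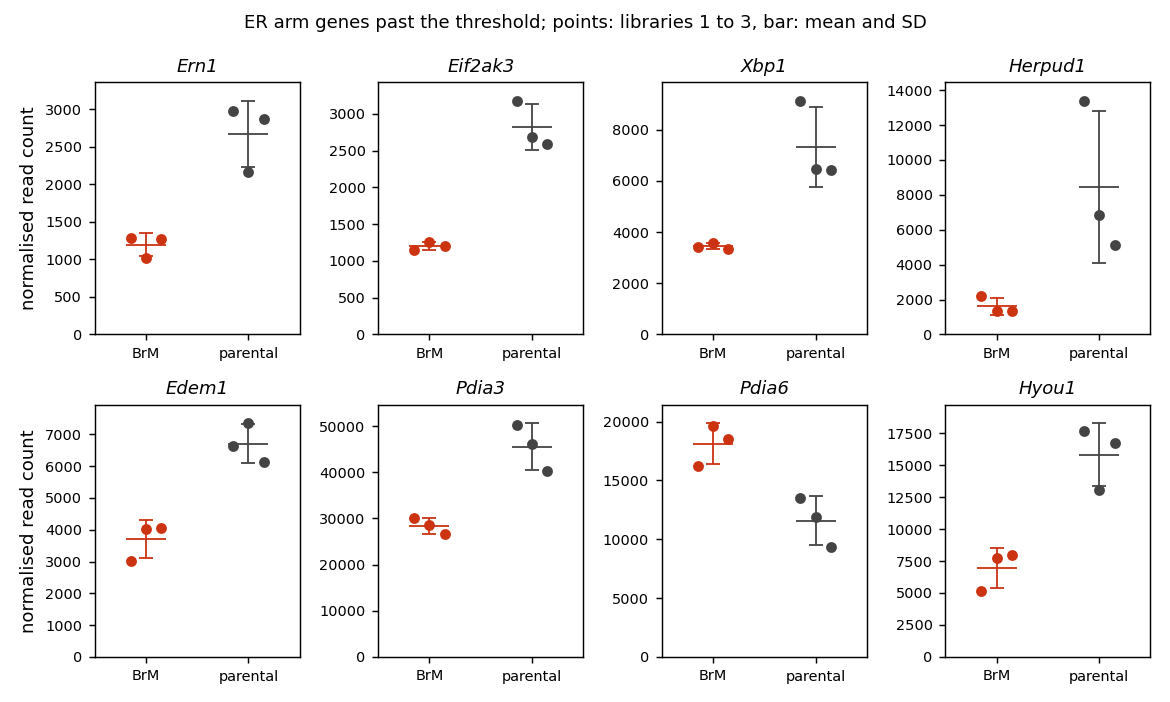
Normalised read counts of the 8 ER members that passed the test, 1 panel per gene, with BrM to the left of parental; points are libraries and bars are mean ± SD of 3 libraries. In every panel the groups are apart, and Pdia6 is the one gene with BrM above parental.

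Among the 9 folding genes, 1 rose (11.1%), 2 fell (22.2%) and 6 did not pass. Over all tested genes 12.2% were higher and 15.8% lower in BrM. Hyou1 (chr9:44379490-44392369, plus strand), a large HSP70-type chaperone that also exchanges nucleotide on BiP, had 5137, 7697 and 7963 in BrM, against 17677, 13045 and 16736 in parental cells. Its groups were well apart, and BrM replicate 1 was the lowest of all. Its means were 6932 ± 1561 in BrM and 15819 ± 2448 in parental cells (SD, n = 3 each), a log2 fold change of -1.21 ± 0.22 (SE), 2.31-fold lower, with limma adjusted p = 0.00877. The protein disulfide isomerases Pdia3, Pdia4 and Pdia6, which make and rearrange disulfide bonds, differed in their result. Pdia3 (chr2:121413775-121438687, plus strand), the isomerase that works on glycoproteins with calnexin and calreticulin, had 30160.4, 28524 and 26714 in BrM, against 50327, 46127 and 40332 in parental cells. It was lower in every BrM library than in any parental one, 1.6-fold on average (log2 fold change -0.68 ± 0.15 (SE), limma adjusted p = 0.0164). Pdia6 (chr12:17266545-17284770, plus strand), an isomerase that binds BiP and attenuates IRE1alpha signalling, had 16262, 19611 and 18531 in BrM, against 13462, 11919 and 9345 in parental cells. Every BrM library was above every parental one, 1.58-fold on average (log2 fold change 0.66 ± 0.17 (SE), limma adjusted p = 0.0317). Pdia4 averaged 10102 ± 735 in BrM and 11459 ± 1025 in parental cells (SD, n = 3 each), with limma adjusted p = 0.335.

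The calls on Pdia3 and Pdia6 were each lost in several omissions of 1 library, which also lowered the number of calls over all tested genes. The limma adjusted p of Pdia3 was 0.0737 on omitting BrM replicate 2, 0.0795 on omitting BrM replicate 3, 0.0556 on omitting parental replicate 1 and 0.0625 on omitting parental replicate 2. That of Pdia6 was 0.114 on omitting BrM replicate 2, 0.102 on omitting BrM replicate 3, 0.0881 on omitting parental replicate 2 and 0.0679 on omitting parental replicate 3. Both kept their direction in all of these. The other 6 ER members that passed, Ern1, Eif2ak3, Xbp1, Herpud1, Edem1 and Hyou1, passed without any 1 library.

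The lectin chaperones Calr and Canx, which hold newly made glycoproteins until they fold, were abundant and did not pass. Calr had 33312, 36974 and 35694 in BrM, against 38764, 35234 and 37423 in parental cells, with limma adjusted p = 0.709. Canx had 24359.7, 26534 and 25458 in BrM, against 33434, 31541 and 29991 in parental cells. The Canx groups did not overlap, BrM being lower, but the difference of -0.31 ± 0.12 (SE) did not pass with limma (adjusted p = 0.104). DESeq2 on the recovered reads gave Canx an adjusted p of 0.0157, but it passed 36.7% of all tested genes, against 28.1% with limma. Manf, a secreted factor released under ER stress, had 4159, 7115 and 6352 in BrM, against 9951, 8884 and 8340.2 in parental cells. It was lower in every BrM library, at a log2 fold change of -0.66 ± 0.22 (SE) with limma adjusted p = 0.0664. On omitting BrM replicate 1, its lowest library, the log2 fold change of Manf was -0.43 with limma adjusted p = 0.0281, and DESeq2 gave an adjusted p of 0.0438. Among the remaining folding genes, Sdf2l1, a cofactor of the BiP chaperone cycle, averaged 1050.0 ± 219 in BrM and 1129 ± 92.6 in parental cells (SD, n = 3 each), and Creld2, an ER protein with isomerase-like activity, averaged 3104 ± 831 in BrM and 2677 ± 430.4 in parental cells (SD, n = 3 each). Neither passed (limma adjusted p = 0.679 and 0.604).

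Of the 7 transcription factors of the amino acid arm, Cebpb and Nupr1 fell (28.6%) and the others did not pass. Among all tested genes 28.1% passed, 15.8% as lower in BrM, so the share that passed was at the background. Atf4 itself, at chr15:80255184-80257541 on the plus strand, had 13062, 12008 and 11736 in BrM, against 17742, 9866 and 9372 in parental cells. The BrM libraries lay inside the parental range, with means of 12269 ± 701 in BrM and 12327 ± 4696 in parental cells (SD, n = 3 each) and a log2 fold change of 0.055 ± 0.26 (SE) (limma adjusted p = 0.891). Cebpb (chr2:167688915-167690418, plus strand), a bZIP factor that pairs with ATF4 and with CHOP, had 3121, 2056 and 2281 in BrM, against 9953, 5814 and 10604 in parental cells. The highest BrM library was below the lowest parental one, 3.47-fold on average (log2 fold change -1.80 ± 0.28 (SE), limma adjusted p = 0.00497), and the call held without any 1 library. Nupr1 (chr7:126623249-126630861, minus strand), a small chromatin protein induced by many stresses, had 3675, 1267 and 1208 in BrM, against 10682, 8009 and 4369 in parental cells. Its groups did not overlap, although BrM replicate 1 was 2.97 times the mean of the other BrM libraries. Its means were 2050.2 ± 1408 in BrM and 7687 ± 3169 in parental cells (SD, n = 3 each), a log2 fold change of -2.02 ± 0.52 (SE), 4.05-fold lower, with limma adjusted p = 0.0298. That p was 0.0928 on omitting BrM replicate 2, 0.0906 on omitting BrM replicate 3, 0.104 on omitting parental replicate 1 and 0.102 on omitting parental replicate 2, with Nupr1 lower in each.

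Ddit3 encodes CHOP, a pro-apoptotic factor downstream of ATF4. It had 2402, 885 and 867 in BrM, against 1671, 543 and 505 in parental cells. In each group replicate 1 was far above the other libraries, 2.74 times their mean in BrM and 3.19 times in parental cells, and the groups overlapped (limma adjusted p = 0.442). Atf3, an early stress factor, had 856, 448 and 414 in BrM, against 695, 1006 and 151 in parental cells. Its parental libraries spanned the BrM values (limma adjusted p = 0.866). The log2 fold change of Atf3 was 0.19 over all libraries, -0.63 on omitting parental replicate 3 and -0.14 on omitting BrM replicate 1, so no direction is given for it. Atf5, a relative of ATF4 under like translational control, had 1871, 4734 and 4188 in BrM, against 8017, 3980.0 and 2629 in parental cells, and Cebpg, a heterodimer partner of ATF4, had 2168, 3154 and 2872 in BrM, against 2801, 2262 and 2193 in parental cells. Both overlapped between groups, with limma adjusted p = 0.6 for Atf5 and 0.544 for Cebpg.

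None of the 4 feedback genes and effectors passed, against 28.1% of all tested genes. Trib3, a pseudokinase that restrains ATF4 and CHOP, had 2067, 912 and 938 in BrM, against 2543, 471 and 376 in parental cells. Parental replicate 1 was 6.01 times the mean of the other parental libraries and above all BrM libraries, while the other parental libraries were below all of them. The log2 fold change of Trib3 was 0.66 with limma adjusted p = 0.555, and 1.52 with limma adjusted p = 0.0654 on omitting parental replicate 1. Chac1, an enzyme that breaks down glutathione, had 970.4, 655 and 711 in BrM, against 1281, 335 and 322 in parental cells. It showed the same arrangement, with a log2 fold change of 0.57 (limma adjusted p = 0.481) that became 1.22 (limma adjusted p = 0.0286) on omitting parental replicate 1. Ppp1r15a, also known as GADD34, the phosphatase subunit that removes phosphate from eIF2alpha, had 3245, 497 and 464 in BrM, against 3058, 2114 and 1130.2 in parental cells. BrM replicate 1 was the highest library of all, 6.75 times the mean of the other BrM libraries, which were below every parental one. Its log2 fold change was -1.09 (limma adjusted p = 0.351), and -2.01 (limma adjusted p = 0.00841) on omitting BrM replicate 1. Sesn2, a stress protein that restrains mTORC1, averaged 1052 ± 483 in BrM and 594 ± 182 in parental cells (SD, n = 3 each) (limma adjusted p = 0.168).

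None of the 6 enzymes of asparagine, serine and mitochondrial folate metabolism passed, against 28.1% of all tested genes. Asns makes asparagine and is a classical ATF4 target. It had 4210.1, 5331 and 5212 in BrM, against 7658, 2104 and 2030.1 in parental cells. All BrM libraries lay between parental replicate 1 above and parental replicates 2 and 3 below. The log2 fold change of Asns was 0.61 (limma adjusted p = 0.413), and 1.24 (limma adjusted p = 0.00943) on omitting parental replicate 1. Phgdh, Psat1 and Psph catalyse the successive steps of serine synthesis. Psat1 had 4077, 14885 and 13842 in BrM, against 10956, 6557 and 5521 in parental cells. BrM replicate 1 was the lowest of all 6 libraries and BrM replicates 2 and 3 the highest, and its log2 fold change was 0.36 (limma adjusted p = 0.653) over all libraries and 0.97 (limma adjusted p = 0.0343) on omitting BrM replicate 1. Psph averaged 2596 ± 302 in BrM and 2094 ± 1161 in parental cells (SD, n = 3 each), with limma adjusted p = 0.409 over all libraries and 0.0319 on omitting parental replicate 1. Phgdh averaged 12409 ± 3809 in BrM and 12195 ± 3094 in parental cells (SD, n = 3 each) (limma adjusted p = 0.999); its transcript matches 13 other annotated entries, mostly pseudogenes, at 95% identity or more over at least 150 bases, so its counts are uncertain. Shmt2 and Mthfd2, which pass 1-carbon units through the mitochondrial folate pool, did not pass either. Shmt2 averaged 7937 ± 2679 in BrM and 6460.0 ± 3136 in parental cells (SD, n = 3 each) with limma adjusted p = 0.571, and Mthfd2 averaged 4027 ± 1517 in BrM and 2708 ± 1983 in parental cells (SD, n = 3 each) with limma adjusted p = 0.358.

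Of the 5 aminoacyl-tRNA synthetases, Wars rose (20.0%) and the other 4 did not pass. Over all tested genes 12.2% were higher in BrM. Wars (chr12:108860030-108894174, minus strand), which charges tRNA with tryptophan and is also known as an interferon-induced gene, had 4668, 5573 and 5377 in BrM, against 3139, 1483 and 1742 in parental cells. The lowest BrM library was above the highest parental one, with means of 5206 ± 476 in BrM and 2121 ± 891 in parental cells (SD, n = 3 each). The log2 fold change was 1.37 ± 0.28 (SE), 2.58-fold higher, with limma adjusted p = 0.0144. That p was 0.0545 on omitting BrM replicate 2, 0.0507 on omitting BrM replicate 3, 0.0504 on omitting parental replicate 2 and 0.0536 on omitting parental replicate 3. Nars, which charges tRNA with asparagine, had 21962, 23357 and 23457 in BrM, against 23180.1, 12078 and 11831 in parental cells. The BrM libraries were nearly equal, and parental replicate 1 matched them while the other parental libraries were lower; the log2 fold change was 0.62 (limma adjusted p = 0.139), and 0.94 (limma adjusted p = 0.0109) on omitting parental replicate 1. Aars, Gars and Sars, for alanine, glycine and serine, had fitted log2 fold changes of 0.21, 0.45 and 0.075, with limma adjusted p = 0.624, 0.316 and 0.905. For each of the 3 the parental range held every BrM value.

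In parental cells most amino acid genes spread widely, mainly through 1 library, while in BrM the spread differed by role. Parental replicate 1 was the highest parental library in 20 of 22 amino acid members and in 15 of 17 ER members, against 38.1% of all tested genes. It was at least 1.5 times the mean of parental replicates 2 and 3 in 19 of 22 amino acid members (86.4%) and in 1 of 17 ER members, Herpud1, against 10.5% of all tested genes. The median ratio was 1.94 in the amino acid arm, 1.18 in the ER arm and 1.02 over all tested genes, and the highest ratios were those of Trib3 (6.01), Chac1 (3.9) and Asns (3.71). Among the 29 tested genes of a list of other ATF4 targets, 65.5% reached a ratio of 1.5. The share was 33.3% of other tRNA synthetases and 26.7% of other serine, glycine and folate genes, lists that share genes with the ATF4 targets. It was 14.3% of sensor-processing genes and relatives and 9.52% of other ER degradation genes. It was 0% of eIF2 kinases, factors and regulators and 0% of other ER folding genes. Within BrM, replicate 1 was the lowest library in 44.9% and the highest in 49.1% of all tested genes, with a median ratio of 1.02 to the mean of BrM replicates 2 and 3. All 6 synthesis and folate enzymes were lowest in BrM replicate 1, at a median of 0.53 times the mean of BrM replicates 2 and 3, and all 4 feedback genes were highest there, at a median of 2.16 times. The transcription factors were lowest there in 2 of 7 and highest in 5, and the tRNA synthetases lowest in 4 of 5 and highest in 1. The SD of log2 values among libraries of a group had a median of 0.41 in BrM and 0.65 in parental cells over the amino acid arm, 0.17 in BrM and 0.19 in parental cells over the ER arm, and 0.33 in BrM and 0.23 in parental cells over all tested genes. Within the amino acid arm the BrM median was 0.57 for transcription factors, 0.64 for feedback genes, 0.53 for synthesis and folate enzymes and 0.14 for tRNA synthetases. These are descriptions made after the values were seen, and medium and kit are not given per library.

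**Figure D3:**
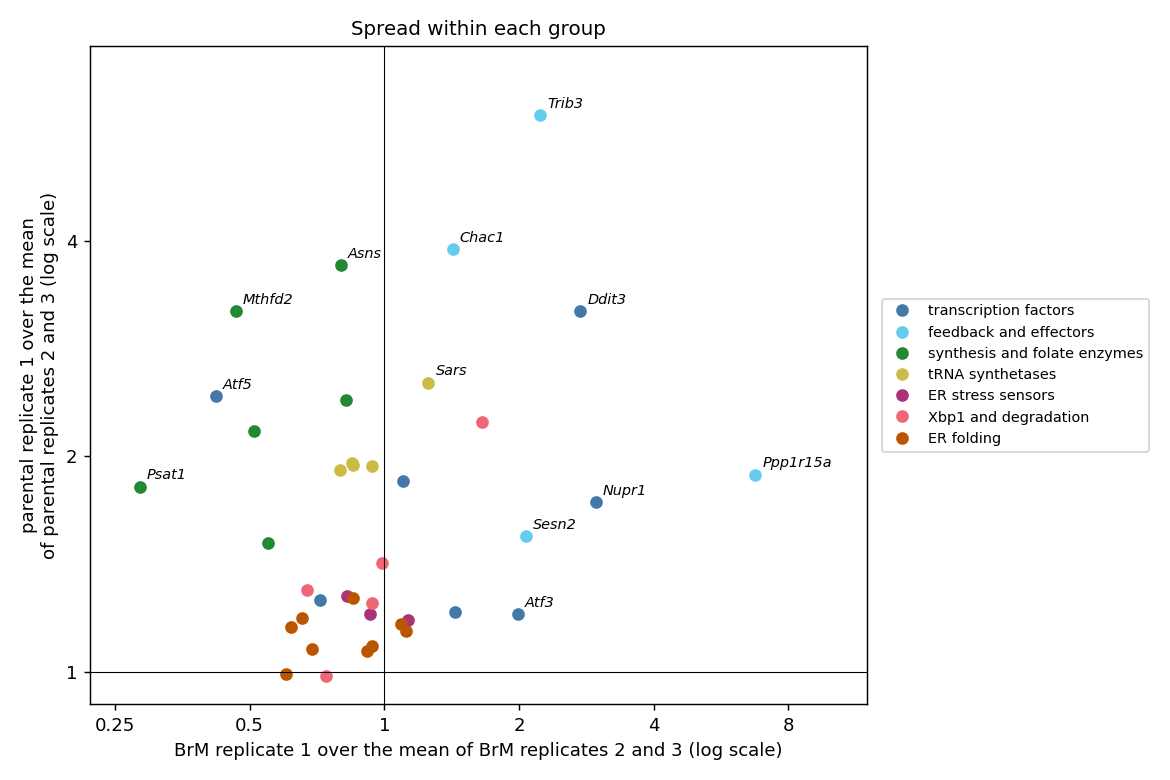
Replicate 1 of each group set against the mean of replicates 2 and 3, for every member, on log axes: BrM ratio on the x axis, parental ratio on the y axis, coloured by role. Amino acid members lie at or above a parental ratio of 1.5 in 19 of 22 cases, while ER members lie below it except Herpud1 at 2.23; names are given for genes far from 1 on either axis.

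**Figure D4:**
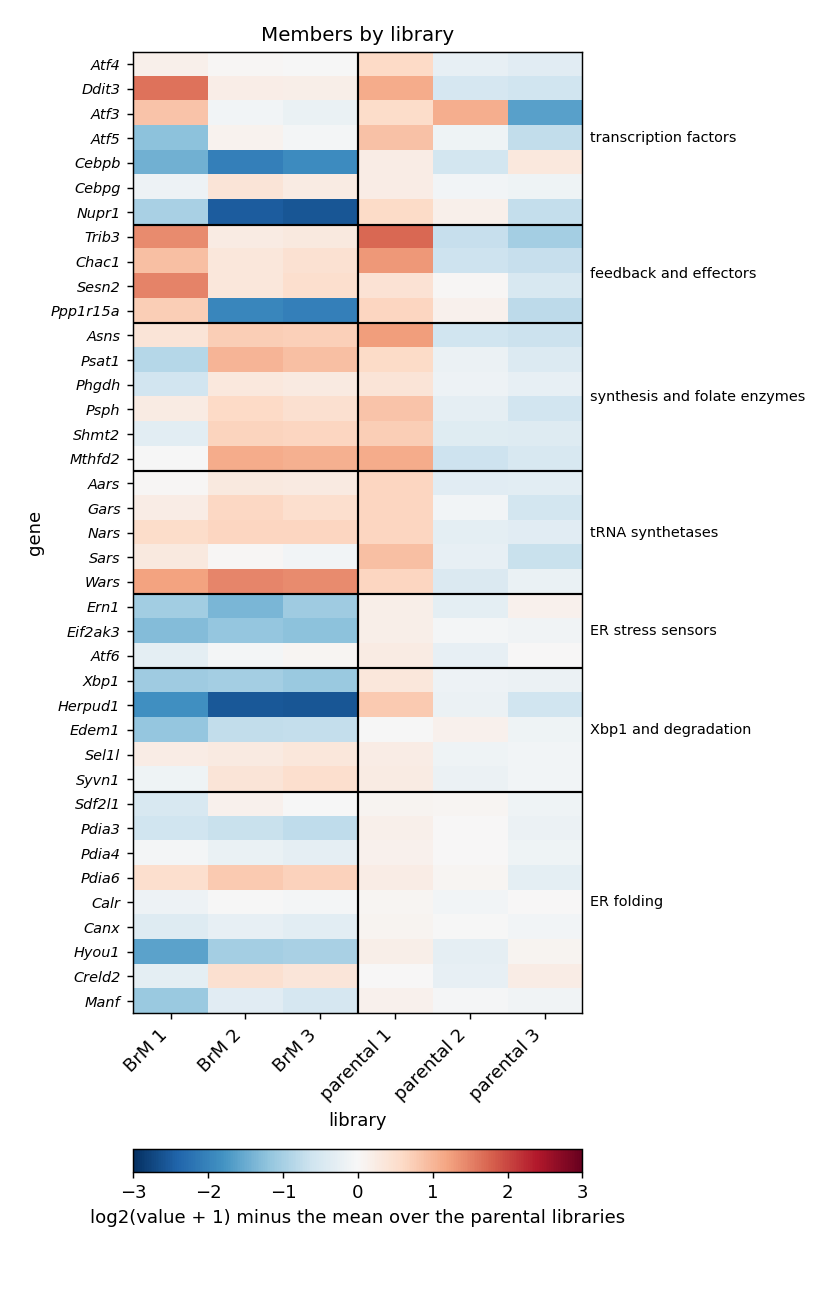
Log2(value + 1) of each library minus the mean over the parental libraries, for the 39 members (rows, by role) in the 3 BrM libraries on the left and the 3 parental libraries on the right; colour gives that difference, red for higher and blue for lower. Parental replicate 1 stands above the other parental libraries in the amino acid rows except Atf3 and Cebpb, and the rows of Eif2ak3, Ern1, Xbp1, Herpud1 and Hyou1 are low in all 3 BrM libraries.

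Levels between genes were compared as RPKM, reads per kilobase of exon scaled to the assigned reads of the library. By that measure the folding genes Calr and Pdia3 stood highest among the members. Calr stood at 335 ± 16.3 in BrM and 333 ± 12.8 in parental cells (SD, n = 3 each). Pdia3 stood at 248 ± 14.9 in BrM and 374 ± 31.7 in parental cells (SD, n = 3 each). Pdia3 was below Calr in all 3 BrM libraries and above it in 2 of the 3 parental libraries. Ern1 was the lowest member in BrM, at 3.99 ± 0.535, against 8.42 ± 1.32 in parental cells (SD, n = 3 each). Eif2ak3 stood at 5.44 ± 0.226 in BrM and 12 ± 0.984 in parental cells (SD, n = 3 each), and Atf6 at 15.1 ± 1.76 in BrM and 15.3 ± 2.24 in parental cells (SD, n = 3 each). Atf6 was the most abundant sensor transcript per length in each of the 6 libraries.

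**Figure D5:**
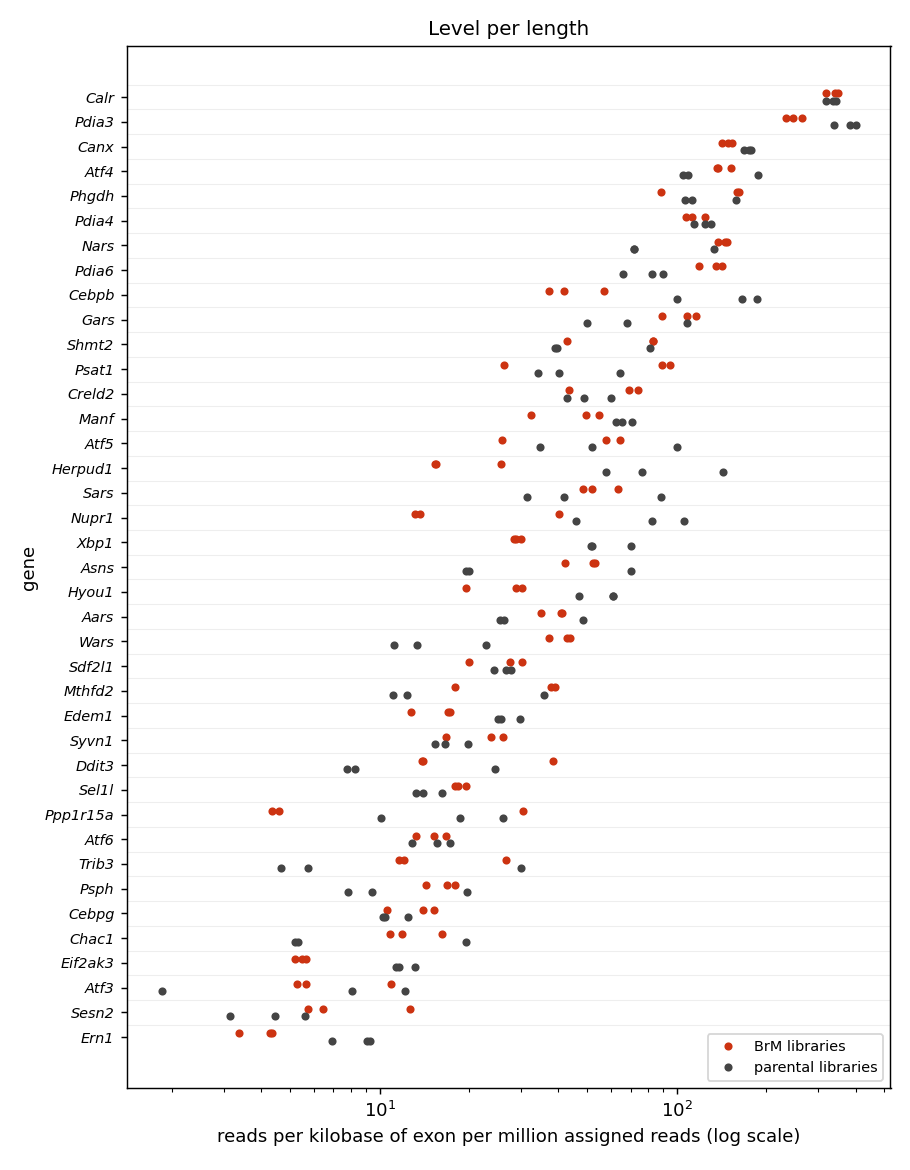
RPKM, reads per kilobase of exon scaled to assigned reads, for the 39 members, on a log axis, with 1 point per library, BrM and parental in different colours. Genes are ordered by the mean of the 2 group means; Pdia3 and Calr stand at the top and Ern1 and Sesn2 at the bottom.

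Other genes of the same pathways were counted from lists of their own, with the 39 members left out. The lists overlap, so their shares are not independent. Cars, Eprs, Iars, Lars, Mars, Tars and Yars stand among both the ATF4 targets and the tRNA synthetases. The ATF4 targets also share Mthfd1l and Aldh1l2 with the serine, glycine and folate list, and Ero1l with the folding list. Dnajc3 stands in the folding and eIF2 lists. Over all tested genes 12.2% were higher and 15.8% lower in BrM, and each list's shares are read against these. The lists were chosen with earlier results of these data known, so their shares are descriptions and no test of the pathways. Of 26 other ER folding genes 13 fell (50%) and 1 rose (3.85%). Dnajc1, a membrane cochaperone, had 1129, 1208 and 1199.5 in BrM, against 2575, 2364 and 2518 in parental cells, 2.11-fold lower (limma adjusted p = 0.00152). Txndc5, a thioredoxin-domain isomerase, had 8583, 8079 and 8117 in BrM, against 21216, 23426 and 16939 in parental cells (limma adjusted p = 0.00182). Prdx4, the peroxiredoxin of the ER, was 3.72-fold lower and Fkbp14, a prolyl isomerase, 3.05-fold lower, with limma adjusted p = 0.00256 and 0.00539. The groups did not overlap in any of these. The count of lower genes was 16 on omitting BrM replicate 1, 9 on omitting BrM replicate 2, 8 on omitting BrM replicate 3, 9 on omitting parental replicate 1, 6 on omitting parental replicate 2 and 12 on omitting parental replicate 3. The gene that rose was Ppib, a prolyl isomerase (1.69-fold, limma adjusted p = 0.0431), and its call was lost on omitting BrM replicate 2 or any 1 parental library. Hspa5 and Hsp90b1, the abundant chaperones BiP and GRP94, were singled out after their values were seen. Hspa5 had 28362, 32961 and 30603 in BrM, against 59111, 46726 and 43313 in parental cells, 1.61-fold lower with limma adjusted p = 0.0252; the call was lost on omitting BrM replicate 2 (adjusted p = 0.0736), BrM replicate 3 (0.0906), parental replicate 1 (0.0669) or parental replicate 2 (0.0692). Hsp90b1 had 44420.3, 55742 and 52526 in BrM, against 55345, 53159 and 43741 in parental cells, with overlapping groups and limma adjusted p = 0.984.

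Of 21 other ER degradation genes 3 fell (14.3%) and 1 rose (4.76%), shares at or below those of all tested genes. They were Vimp, a membrane partner of the extraction complex (2.12-fold lower, limma adjusted p = 0.0231), Erlec1, a lectin (2-fold lower, 0.0358), Man1b1, a mannosidase (1.29-fold lower, 0.0482), and Aup1, a lipid droplet and ligase cofactor (1.5-fold higher, 0.025). The lower count of this list was 7 on omitting BrM replicate 1, 1 on omitting BrM replicate 2 or parental replicate 3 and 0 on omitting BrM replicate 3 or parental replicate 1 or 2. Among 14 sensor-processing genes and relatives 3 fell (21.4%) and 0 rose, Creb3l4, Creb3l1 and Bax, which binds IRE1alpha; the count was 0 on omitting BrM replicate 3 or parental replicate 1 or 2, 1 on omitting BrM replicate 2, 2 on omitting parental replicate 3 and 5 on omitting BrM replicate 1. Creb3l1, a bZIP factor cleaved like ATF6, had 85.4, 0 and 1.86 in BrM, against 1099, 1237 and 783 in parental cells. BrM replicates 2 and 3 were at or near 0 and BrM replicate 1 was not, so no fold is given, with limma adjusted p = 0.0152. The calls on Vimp and Creb3l1 were lost on omitting BrM replicate 3, parental replicate 1 or parental replicate 2, those on Aup1 and Creb3l4 on omitting BrM replicate 2 as well, and those on Erlec1, Man1b1 and Bax without any 1 library other than BrM replicate 1.

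Of 17 eIF2 kinases, factors and regulators 3 rose and 3 fell (17.6% each). Eif2s1, the eIF2alpha subunit that PERK and GCN2 phosphorylate, had 7215, 11237 and 10894 in BrM, against 2783, 3049 and 3428 in parental cells. All BrM libraries were more than any parental one, 3.12-fold on average (log2 fold change 1.64 ± 0.20 (SE), limma adjusted p = 0.00224). Eif2b2, a subunit of the exchange factor that phosphorylated eIF2 inhibits, was 2.28-fold higher (limma adjusted p = 0.0033), and Dnajc3, an ER cochaperone once described as an inhibitor of eIF2 kinases, was 2.57-fold lower (limma adjusted p = 0.0146). Nck1, an adaptor that recruits a phosphatase to eIF2, was 1.59-fold lower (limma adjusted p = 0.0205). The calls on Dnajc3 were lost on omitting parental replicate 2 or 3, and those on Nck1 on omitting BrM replicate 2 or 3 or parental replicate 1 or 2. The others that passed were Eif2s3x, the gamma subunit of eIF2 (1.63-fold higher, limma adjusted p = 0.0323), and Impact, an inhibitor of GCN2 activation (1.81-fold lower, limma adjusted p = 0.0264); the call on Eif2s3x held on omitting BrM replicate 1 alone, and that on Impact on omitting BrM replicate 1 or parental replicate 2. The higher count was 7 on omitting BrM replicate 1 and 2 without any one of the others, and the lower count was 4 on omitting BrM replicate 1 and 1 without any one of the others.

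Of 29 other ATF4 targets 1 rose (3.45%) and 3 fell (10.3%), both shares below those of all tested genes. Stc2, a secreted glycoprotein, had 979, 661 and 698 in BrM, against 6056, 3582 and 1761 in parental cells (limma adjusted p = 0.0144). Slc7a11, the cystine transporter, had 657, 425 and 672 in BrM, against 8978, 3128 and 1532 in parental cells. Every BrM library was below every parental one for both, 4.39-fold for Stc2 and 6.11-fold for Slc7a11 (limma adjusted p = 0.0225). Gdf15, a stress cytokine, was low throughout, at 8.49 in BrM and 111 in parental cells on average (limma adjusted p = 0.019). The lower count was 4 on omitting BrM replicate 1 or parental replicate 3, 2 on omitting parental replicate 1, 1 on omitting BrM replicate 3 and 0 on omitting BrM replicate 2 or parental replicate 2. The higher count was 4 on omitting parental replicate 1, 1 on omitting BrM replicate 1 and 0 without any one of the others. Of 15 other tRNA synthetases 3 rose (20.0%) and 0 fell: Dars (1.66-fold, limma adjusted p = 0.0193), Rars (1.88-fold, 0.0231) and Tars (1.84-fold, 0.0425), which charge tRNA with aspartate, arginine and threonine. All 3 calls were lost without any one of BrM replicate 2, BrM replicate 3, parental replicate 2 and parental replicate 3, and that on Dars also on omitting parental replicate 1. Of 15 other genes of serine, glycine and folate metabolism 3 fell (20.0%) and 0 rose; the lower count was 3 in every omission, and the higher count was 4 on omitting BrM replicate 1 and 0 without any one of the others. Glul, glutamine synthetase, had 3907, 1456 and 1484 in BrM, against 34624, 16646 and 24262 in parental cells, 11.8-fold lower (limma adjusted p = 0.00246). Gldc, of the glycine cleavage system, was low in both groups, and Aldh1l1, the cytosolic formyl-folate dehydrogenase, had 3.66, 0 and 0 in BrM, against 2615, 2238 and 839 in parental cells (limma adjusted p = 0.00038). Of the 28 genes of these lists named here that passed, 9 passed without any 1 library: Eif2s1, Eif2b2, Dnajc1, Txndc5, Prdx4, Fkbp14, Aldh1l1, Glul and Gldc. The calls on Stc2, Gdf15 and Slc7a11 were lost on omitting parental replicate 2 or BrM replicate 2, those on Gdf15 and Slc7a11 also on omitting BrM replicate 3, and that on Gdf15 also on omitting parental replicate 1.

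The counting was not stated to use strand, so reads from overlapping genes may be shared. Members that overlap a tested gene on the opposite strand were Ddit3 (Mars), Atf5 (Nup62), Cebpb (Tmem189), Psph (Cct6a), Wars (Wdr25), Syvn1 (Mrpl49), Pdia3 (Catsper2) and Pdia6 (Atp6v1c2), and on the same strand Aars (Exosc6) and Manf (Rbm15b). Among the 11 members that passed, these are Cebpb, Wars, Pdia3 and Pdia6, whose values are to that extent uncertain. Eif2ak3, which also passed, has a transcript that matches the entry Gm43292 at 100% identity over 222 bases. Manf matches the entry 4930524O07Rik at 100% identity over 166 bases. The part of these matches in the values was not tested.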

How the data were processed

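Polyadenylated RNA was sequenced by the authors on an Illumina HiSeq; per the submitters' processing notes STAR and HTSeq were used with GRCm38 for mouse, with no versions, and the scaling step is not given in the sources used here. The deposited values are normalised counts, a signal scale. A library's smallest positive value was taken as 1 read. Divided by it, 100% of the deposited signal values came out whole (tolerance 0.01), and these whole reads entered the count tests. The 5 human libraries were not analysed here. Libraries were grouped by their labels. A library without a number in its title was taken as replicate 3, its column name giving that number.

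BrM was compared with parental, group alone in the model, in limma 3.58.1 (R 4.3.3) on log2(value + 1), moderated with an intensity trend, two-sided, for 13821 genes with a mean of at least 10, with Benjamini-Hochberg adjustment. edgeR 4.0.16 and DESeq2 1.42.0 on recovered reads, other pseudocounts, filters and scalings, a replicate block and leaving out each library were alternatives. Averaging BrM replicates 2 and 3 was added after seeing the data. The methods were tested on simulated data with the same dispersion for every gene and no library set apart. That check does not cover a library that departs as BrM replicate 1 does. Values per library were given for genes that passed, transcription factors and sensors, and others; from each list up to 4 genes that passed were named by smallest p, and Ppib, Hspa5, Hsp90b1, Eif2s3x and Impact were named after their values were seen. The members and lists were chosen with earlier results of these data known. Promoters came from RefSeq (GRCm38.p6), gene positions from GENCODE M21, transcript copies from blastn 2.17.0. Depth was 29877087 to 46683735 recovered reads assigned to genes.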

Additional observations from a re-analysis of the deposited data

How the results depend on the processing

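The 39 members gave 624 results under 16 alternatives. Of these 572 kept their direction and their side of the threshold, 20 lost the call, 11 gained it and 21 changed sign, none of the 21 in a member that had passed. Cebpb, Ern1, Eif2ak3, Xbp1, Herpud1, Edem1 and Hyou1 passed under every alternative, including the average of BrM replicates 2 and 3 that was added after seeing the data. Leaving out 1 library gave 2191 to 6519 genes passing over the table, 0 to 5 amino acid members higher, 1 to 3 amino acid members lower, 0 to 2 ER members higher, 6 to 8 ER members lower and 12 to 53 genes of the other pathway lists, against 35 with all libraries. Over the same omissions the median log2 fold change ran from 0.14 to 0.68 in the amino acid arm and from -0.35 to -0.27 in the ER arm. Members whose sign turned had log2 fold changes from -0.63 to 0.74 for Atf3, -0.11 to 0.35 for Atf4, -0.76 to 0.044 for Atf5, -0.22 to 0.022 for Atf6, -0.15 to 0.29 for Phgdh, -0.26 to 0.53 for Sars and -0.25 to 0.055 for Sdf2l1. With edgeR on recovered reads Atf3 was at -0.10 and Sars at -0.066, with DESeq2 Atf3 was at -0.083 and Sars at -0.052, and under quantile normalisation Atf6 was at 0.022. The cause of these turns was not tested. Averaging BrM replicates 2 and 3 gave 2279 genes over the table, 0 amino acid members higher and 1 lower, 0 ER members higher and 16 genes of the other pathway lists, and put Phgdh at -0.14; it leaves fewer libraries. The deviations of BrM and parental libraries from their group means correlated at 0.304, -0.088 and 0.326 for the same numbers 1, 2 and 3, and at -0.341 to 0.311 for different numbers. Not every same-number pair was positive, and the labels state no pairing, so the numbers were not taken to pair the libraries. A replicate block called 4040 genes over the table and 2 amino acid members higher, Ddit3 (adjusted p = 0.0327) being added to Wars. Every value rests on 3 libraries a group.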
